A study of Mus musculus with 24 samples.

Results

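Mouse embryonic stem cells in which the gene Eed had been deleted and which carried the form of EED labelled N-KR were compared with cells of the same knockout that carried wild-type EED, both in the state labelled 3i. The comparison rests on the 2 libraries titled as KO with N-KR EED at 3i and the 2 titled as KO with wild-type EED at 3i, 4 of the 24 libraries of the series, and covered all 23284 genes of the count table. The cells are of strain C57BL/6 and, per the labels, were kept in medium with serum and LIF over a layer of feeder cells, mouse embryonic fibroblasts. Deletion of Eed was induced with 800 nM 4-OH tamoxifen, which both rescue lines (here KO+N-KR and KO+WT) and the knockout without added EED (KO) received, while the conditional parent line (f/f) did not. No label spells out N-KR, the residues it changes or what 3i holds, and their genotype entry gives only the knockout for each rescue line, so groups were read from the titles. They name no clone or number of lines, so a difference between the 2 forms of EED and a difference between 2 lines cannot be told apart here. The same lines as embryoid bodies (EBs) at day 1 and day 2, which hold no 3i library, were used to see which differences recurred.

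EED is a core subunit of Polycomb repressive complex 2 (PRC2), in which EZH2 or EZH1 methylates histone H3 and SUZ12 holds the complex together. EED binds the methylated histone tail and stimulates the enzyme, which lets the mark spread over silent genes. In embryonic stem cells PRC2 sits on many genes of later cell types, and cells that lack EED still self-renew but differentiate poorly. SKP1, which the title of the series names, is a subunit of SCF ubiquitin ligases, enzymes that mark proteins for degradation.

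The 4 libraries held 12006492 and 8552602 counts (KO+N-KR) and 10463915 and 7553683 counts (KO+WT). Within a group the libraries were nearly as alike as 2 draws from 1 RNA pool: the variance of their count differences was 1.14 times (KO+N-KR) and 1.12 times (KO+WT) that of binomial sampling, against 5.85 and 4.52 times between the same-numbered libraries of the 2 groups. The labels mention no separate cultures, so they were summed and counted as 1 sample, and no p-value within 3i speaks of the lines. Values below are CPM of each library (counts scaled to library size by TMM), and log2 ratios of the sums, KO+N-KR over KO+WT, with an exact (Clopper-Pearson) 95% interval that covers counting error only. A gene was called by size at 3i when the sums differed 2-fold or more and the higher one reached 5 CPM. A second measure, the across-state fit, is edgeR's quasi-likelihood test of genotype with state as a term over 12 sums (4 genotypes, 3 states), given as log2 difference ± SE with its Benjamini-Hochberg adjusted p. Its p-values set a difference between single lines against the spread left over all 4 genotypes and 3 states. That spread includes uneven changes in KO and f/f, so a gene that did not pass can still have recurred evenly between the rescue lines. They do not say how independent lines vary.

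Core pluripotency genes were at high levels in both lines. Pou5f1, the core factor OCT4, stood at 967 and 948 CPM in KO+N-KR and at 966 and 932 CPM in KO+WT, and Tfcp2l1, a factor of the naive network, at 953 and 953 CPM against 912 and 914 CPM. None of 15 naive pluripotency genes was called by size or passed across states, and their median log2 ratio was -0.01, beside 0.00 over all genes tested. They ran from -0.37 to 0.52, with Esrrb the highest. Of 10 general pluripotency genes none was called or passed across states either, the lowest being Dppa2 (-0.55). In the EBs alone 2 of the 15 rose, Esrrb and the nuclear receptor gene Nr0b1 (0.42 ± 0.08, edgeR adjusted p = 0.0125), against 0.445% of all genes tested there.

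Eed itself differed between the rescue lines. Its level was 169 and 166 CPM in KO+N-KR and 387 and 389 CPM in KO+WT, with KO at 138 CPM and f/f at 175 CPM. Both KO+N-KR libraries were below both KO+WT libraries and near the level of f/f. The log2 ratio was -1.20 (interval -1.26 to -1.15), and Eed fell across states (-0.97 ± 0.10, edgeR adjusted p = 0.000287). The counts span the whole gene, the deleted part is not stated, and the labels do not say whether the added sequence would be counted, so this level measures neither the deletion nor how much EED protein the cells held.

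The other 11 PRC2 genes on the list differed little, with log2 ratios from -0.55 to 0.42 at 3i, and none was called by size or passed across states. The catalytic subunit gene Ezh2 stood at 235 and 237 CPM against 217 and 233 CPM, and Suz12 at 396 and 409 CPM against 451 and 465 CPM. The lowest of the 11, E130012A19Rik (Epop), which encodes a PRC2 accessory protein, stood at 103 and 102 CPM against 154 and 144 CPM and had a log2 ratio of -0.55 (interval -0.63 to -0.47), but lay near 0 in the EBs (-0.02 and 0.09). Skp1a stood at 362 and 368 CPM in KO+N-KR and 395 and 397 CPM in KO+WT, a log2 ratio of -0.11 (across states -0.09 ± 0.05, edgeR adjusted p = 0.801). No gene of the 12 on the SCF ubiquitin ligase list or the 25 on the proteasome list was called by size or passed across states.

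By size, 54 of 10866 genes (0.497%) that reached 5 CPM differed at 3i, 15 higher (0.138%) and 39 lower (0.359%) in KO+N-KR. In 53 of the 54 the same-numbered library pairs differed in the same direction by at least 1.5-fold each. Calls on the sums of these same libraries all but fix that, so it is not a replication. The exception, named after its values were seen, was the small nucleolar RNA gene Snord55, at 1.30 and 13.4 CPM in the 2 KO+WT libraries. From the replicate 2 libraries alone, 24 genes were higher and 56 lower, 12 and 28 of them among the 15 and 39. For 11 of the 15 higher and 30 of the 39 lower genes, both KO and f/f lay between the 2 rescue lines. Outside these, KO+N-KR and not KO+WT lay beyond the other 3 samples for 3 and 4 genes, and KO+WT and not KO+N-KR for 1 and 4. The genes were chosen on the difference between the rescue lines, so these counts are a description.

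The EBs gave the same measure in samples that the 3i calls did not use. In a fit of day 1 and day 2 alone, 98 of 14844 genes (0.660%) passed, 66 higher (0.445%) and 32 lower (0.216%). Of the 15 genes higher at 3i, 4 passed there in the same direction, and of the 36 tested among the 39 lower genes 10 did. None passed in the other direction. The 10 include Gm4340 and the similar copies Zscan4a, Zscan4b, Zscan4c, Zscan4e and Zscan4f, which are not independent, as described below. The median log2 ratio of the 15 was 1.23 at 3i, 0.62 at day 1 and 0.05 at day 2, and that of the 39 was -1.21, -0.45 and -0.48. Over all genes tested these medians were 0.00, -0.01 and 0.00.

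Across states, 84 of 14970 genes passed (0.561%), 44 higher (0.294%) and 40 lower (0.267%) in KO+N-KR, of which 12 and 25 differed by at least 2-fold. Of the 84, 17 were also called by size at 3i, and 23 were under 5 CPM in both 3i samples. Without day 1 the fit called 30 genes, all among the 84. A fit over the 24 libraries as separate samples called 2846 of 14619 genes at 3i (19.5%), 1328 higher (9.08%) and 1518 lower (10.4%). Its spread is that between the 2 libraries of a group, so it compares these RNA samples and not the lines. Its counts were 757 and 942 without KO+WT replicate 1 and 801 and 954 without KO+N-KR replicate 1.

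**Figure D1:**
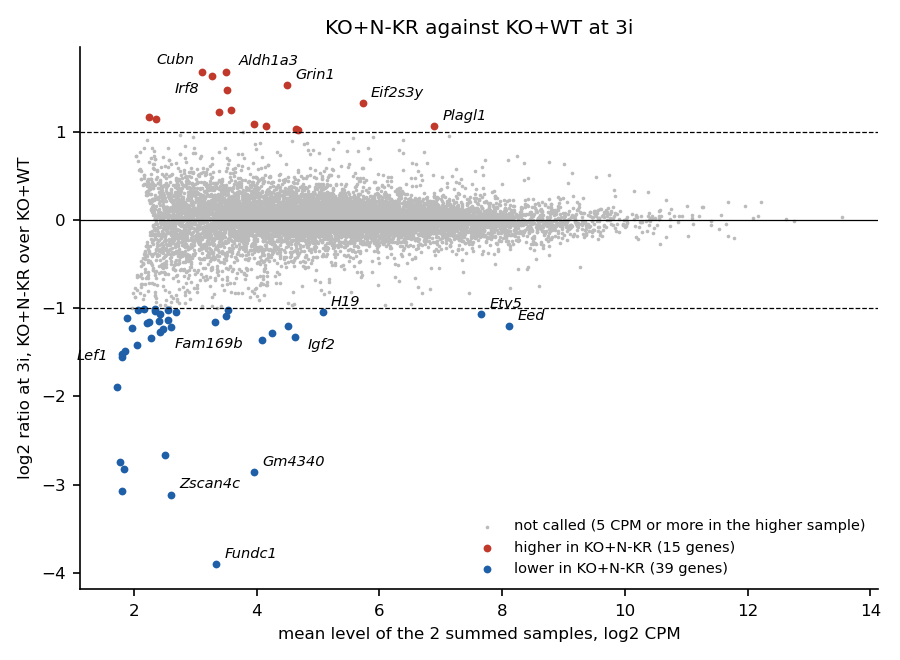
Log2 ratio of KO+N-KR over KO+WT at 3i (vertical axis) against the mean level of the 2 summed samples in log2 CPM (horizontal axis), 1 point per gene that reached 5 CPM in either sample. Red points are the 15 genes called higher and blue points the 39 called lower at 2-fold (dashed lines). Fundc1 and the Zscan4 genes lie lowest, and Eed and Etv5 stand out at high levels.

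Fundc1, an X-linked gene for a receptor of the outer mitochondrial membrane that recruits the autophagy machinery (mitophagy), had the lowest ratio. It stood at 1.46 and 0.793 CPM in KO+N-KR and at 18.0 and 20.6 CPM in KO+WT, with KO at 18.8 CPM and f/f at 20.1 CPM. KO+N-KR alone was low, and the other 3 genotypes were alike. The level was 15.0-fold lower (log2 ratio -3.91, interval -4.66 to -3.42), and it was as low in the EBs, at 1.11 against 15.3 CPM at day 1 and 1.49 against 16.5 CPM at day 2. Fundc1 fell across states with the lowest p of all genes (-3.75 ± 0.13, edgeR adjusted p = 5.78e-09). Neighbours were counted only among tested genes with a RefSeq match and a mean of 5 CPM or more over the 4 genotypes at 3i. The 6 such genes on each side of Fundc1 in genome order had median log2 ratios of -0.14 and -0.05, and none of them passed.

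2 further genes were lower in KO+N-KR than in each of the other genotypes while none of their counted neighbours passed across states. 1500001M20Rik (Tamm41), which makes the lipid precursor of cardiolipin in mitochondria, stood at 15.8 and 17.6 CPM in KO+N-KR against 33.4 and 30.3 CPM in KO+WT, 34.1 CPM in KO and 36.7 CPM in f/f, and fell across states (-0.95 ± 0.08, edgeR adjusted p = 3.84e-05). Tab1, an adaptor of the kinase TAK1, stood at 10.1 and 9.18 CPM against 16.1 and 14.5 CPM, with 17.7 CPM in KO and 18.4 CPM in f/f, and fell as well (-0.90 ± 0.11, edgeR adjusted p = 0.000875, and 0.0714 without day 1). For both, the groups did not overlap, and none of the 6 neighbours counted on either side passed.

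**Figure D2:**
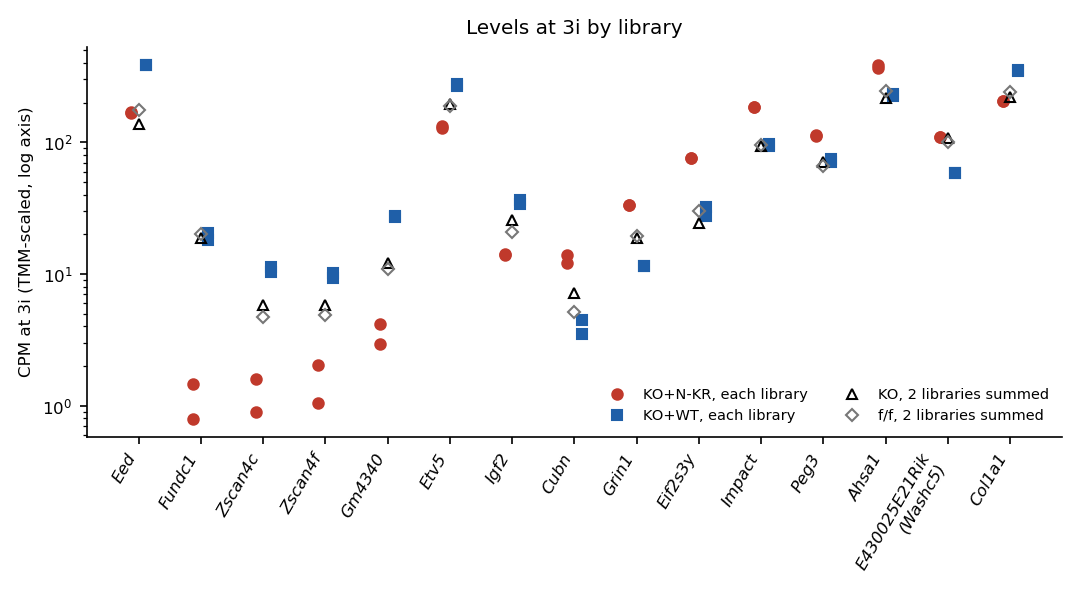
CPM at 3i on a log axis for 15 named genes, with red circles for the 2 KO+N-KR libraries, blue squares for the 2 KO+WT libraries, and open triangles and diamonds for the summed libraries of KO and f/f. The 2 libraries of a group lie close together. Fundc1 is low in KO+N-KR alone, Eed is high in KO+WT alone, and for Zscan4c, Zscan4f and Gm4340 KO and f/f lie between the rescue lines.

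Genes of the 2-cell-like state formed the largest set among the lowest ratios. A small share of embryonic stem cells at any time expresses transcripts of the 2-cell embryo, among them the Zscan4 cluster, whose zinc finger proteins act in telomere maintenance, and the Tcstv genes. Zscan4c stood at 0.889 and 1.59 CPM in KO+N-KR and at 11.4 and 10.4 CPM in KO+WT, 8.66-fold lower, with KO at 5.79 CPM and f/f at 4.72 CPM. Zscan4f stood at 1.05 and 2.04 CPM against 10.2 and 9.25 CPM, and Zscan4e at 0.323 and 1.13 CPM against 5.77 and 6.94 CPM. The groups did not overlap, which a call by size all but fixes, and both KO and f/f lay between them. The 3i log2 ratios were -3.11 (interval -3.87 to -2.61) for Zscan4c, -2.67 for Zscan4f and -3.07 for Zscan4e, and from the replicate 2 libraries alone -2.56, -2.07 and -2.40.

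Across states Zscan4c (-2.30 ± 0.33, edgeR adjusted p = 0.00348), Zscan4e (-2.57 ± 0.30, 0.000759), Zscan4b (-2.47 ± 0.31, 0.00119), Zscan4a (-2.29 ± 0.31, 0.00215), Zscan4f (-2.16 ± 0.32, 0.0042) and Zscan4d (-2.33 ± 0.37, 0.00743) all fell, Zscan4d not without day 2 (0.0557). Gm4340 stood at 4.20 and 2.95 CPM against 27.6 and 26.99 CPM and fell too (-2.28 ± 0.32, edgeR adjusted p = 0.00292). Tcstv3 had 0 counts in both KO+N-KR libraries and 1.02 and 0.900 CPM in KO+WT, at least 6.84-fold lower against a floor of 3 counts over the group, and Tcstv1 stood at 0 and 0.227 CPM against 0.838 and 2.06 CPM. Both fell across states (edgeR adjusted p = 0.00743 and 0.0462). Tcstv3 did not without day 1 (0.0895) or day 2 (0.0528), and Tcstv1 did not under library totals, DESeq2 size factors or with any 1 state or replicate left out (0.0501 to 0.324). Gm5662, at 1.62 and 0.907 CPM against 5.59 and 4.63 CPM, was called by size but did not pass across states (-1.53 ± 0.33, edgeR adjusted p = 0.0755, and 0.00435 with DESeq2's Wald test).

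Of the 9 genes on the 2-cell-like list 8 were in the table, 3 reached 5 CPM and all 3 were called lower by size, beside 0.359% of all genes. Between the rescue lines, these 3 reached 5 CPM in KO+WT alone, where they are high, so that count is only a description. Zscan4c and Zscan4f also reached it in KO, at 5.79 and 5.83 CPM. Of 6 tested, 5 fell across states and 4 in the EBs alone, beside 0.267% and 0.216% of all genes, and the median log2 ratio of the 6 was -2.84 at 3i, -1.77 at day 1 and -2.12 at day 2. The summed level of the list was 4.12 and 5.44 CPM in KO+N-KR, 33.0 and 31.6 CPM in KO+WT, 18.0 CPM in KO and 15.2 CPM in f/f. In bulk RNA, fewer cells in this state and less RNA per such cell cannot be told apart. The members are not independent: 47.9% (Zscan4d) to 89.0% (Zscan4e) of the 50-base stretches of a Zscan4 transcript occur in another member, and no source used here gives how reads shared by copies were counted, so single members are uncertain. Among other genes that passed, Gm4303, Gm4305 and Gm4307 had identical counts in all 24 libraries, as did Gm4301 and Gm4312, and Gm13040 and Gm13057.

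The copies are alike upstream as well. RefSeq (build GRCm38.p6) gave a promoter window for 4 of the 6 Zscan4 genes, and each held the letters TATAAA, the core of the TATA box, shown in capitals with 30 bases before and 20 after, 5′ to 3′ on the strand of the gene. They are shown because these genes were lower together.
Zscan4b, chr7:10905056-10905111, minus strand: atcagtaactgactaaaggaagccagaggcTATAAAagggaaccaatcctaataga
Zscan4c, chr7:11005661-11005716, plus strand: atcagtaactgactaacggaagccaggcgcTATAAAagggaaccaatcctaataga
Zscan4d, chr7:11166188-11166243, minus strand: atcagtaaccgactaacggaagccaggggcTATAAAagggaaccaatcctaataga
Zscan4f, chr7:11397854-11397909, plus strand: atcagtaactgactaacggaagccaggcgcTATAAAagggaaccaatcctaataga
The Zscan4f stretch equals that of Zscan4c at 56 of 56 bases, Zscan4d at 54 and Zscan4b at 53. TATAAA occurred on the strand of the gene in 7.59% of 32851 windows of the 250 bases before a gene's start, and on either strand in 12.4%. The match is a description of the letters and says nothing of what binds there.

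Several endoderm genes were higher in KO+N-KR. Cubn, the endocytic receptor cubilin of the visceral endoderm, stood at 13.8 and 12.1 CPM against 4.47 and 3.47 CPM in KO+WT, with KO at 7.17 CPM and f/f at 5.12 CPM. Its ratio was 3.20-fold at 3i (log2 1.68, interval 1.33 to 2.09), and in the EBs it stood at 58.8 against 10.9 CPM and 55.4 against 15.3 CPM. Cubn rose across states (2.06 ± 0.16, edgeR adjusted p = 2.70e-05). Its partner Amn (amnionless), at 3.15 and 3.63 CPM against 1.30 and 1.41 CPM, rose with it (1.75 ± 0.33, edgeR adjusted p = 0.0328, and 0.313 without day 1, 0.114 without day 2 and 0.0729 without replicate 1).

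Dab2, an adaptor for that receptor's uptake, stood at 8.49 and 9.07 CPM against 5.40 and 5.27 CPM and rose across states (1.29 ± 0.17, edgeR adjusted p = 0.00156, and 0.0731 without day 1 and 0.0564 without day 2). Lama1, a laminin chain of the basement membrane, stood at 222 and 229 CPM against 156 and 149 CPM and rose (0.96 ± 0.12, edgeR adjusted p = 0.00111). With the collagen chains Col4a1 (0.86 ± 0.09, edgeR adjusted p = 0.000474) and Col4a2 (0.88 ± 0.12, 0.00197), 6 of 17 tested endoderm genes rose across states, against 0.294% of all genes tested, and none fell. At 3i 1 of them, Cubn, was called by size. In the EBs alone 8 rose, against 0.445%. Like the other gene lists here, this one was written with earlier results of these data known, so these counts are descriptions. The list's median log2 ratio was 0.56 at 3i, 1.25 at day 1 and 0.97 at day 2. Of the 17 tested members, 14 had a ratio above 0 at 3i and 3 below it. Those below were Foxa1 (-0.67), Lamc1 (-0.11) and Sparc (-0.02), named after their values were seen. Foxa1 had ratios below 0 in the EBs too (-1.86 and -1.30) and did not pass across states (-1.51 ± 0.80, edgeR adjusted p = 0.747).

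The regulators of endoderm fate did not pass across states, but Gata4 and Gata6 rose in the EBs alone (1.43 ± 0.23 and 1.39 ± 0.28, edgeR adjusted p = 0.00355 and 0.0248). At 3i Gata6 stood at 3.80 and 3.401 CPM in KO+N-KR against 1.30 and 2.31 CPM (across states 1.31 ± 0.35, edgeR adjusted p = 0.200), Gata4 at 5.34 and 4.53 CPM against 2.98 and 3.86 CPM (1.11 ± 0.27, 0.135), and Sox17 at 1.21 and 1.59 CPM against 0.838 and 1.41 CPM (1.18 ± 0.34, 0.273). For Sox17 the groups overlapped at 3i. Afp, a marker of later visceral endoderm, had 0 counts in 3 of the 4 libraries and 1 in the other. Of 8 parietal endoderm genes none passed across states, and their median at 3i was -0.38. Srgn, a proteoglycan core protein, at 7.11 and 5.67 CPM against 2.89 and 2.83 CPM, also rose (1.61 ± 0.19, edgeR adjusted p = 0.000704, and 0.0651 without day 1), as did the forkhead factor Foxq1, named after its values were seen (1.497 ± 0.23, edgeR adjusted p = 0.00581).

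**Figure D3:**
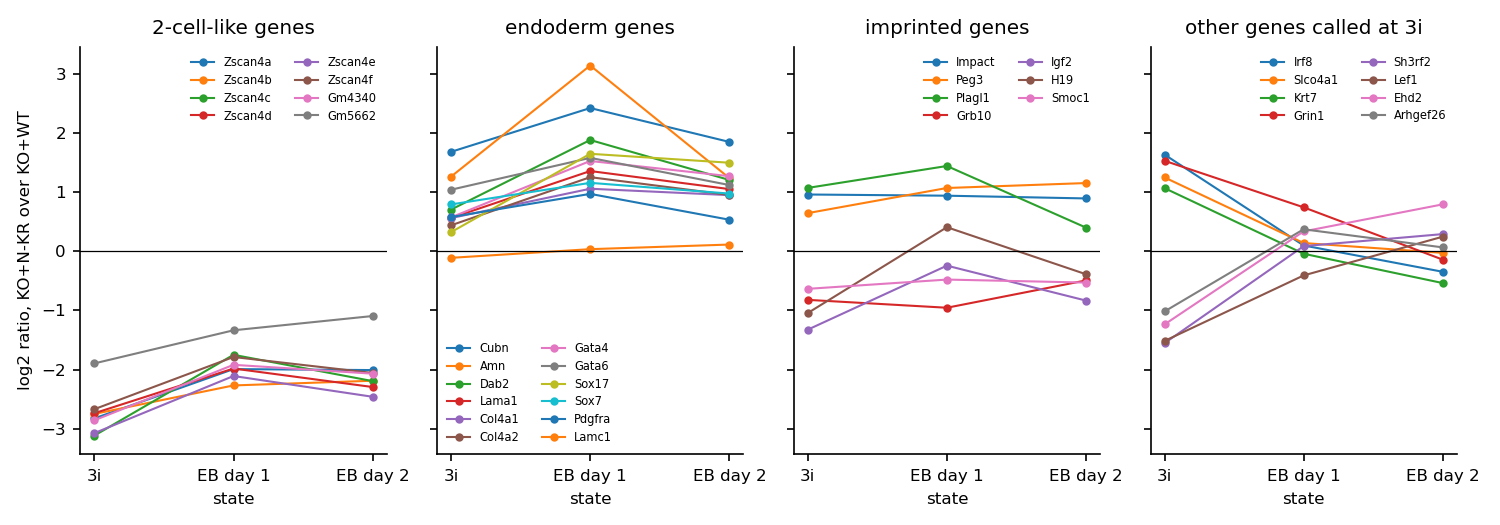
Log2 ratio of KO+N-KR over KO+WT at 3i and in EBs at day 1 and day 2, 1 line per gene, for 2-cell-like, endoderm, imprinted and other genes called at 3i, the last chosen after their values were seen. The 2-cell-like genes are below 0 in all 3 states, and the endoderm genes shown other than Lamc1 are above 0 in all 3. Not every tested endoderm gene is shown, and Foxa1, below 0 in all 3 states, is left out. The ratios of Irf8, Slco4a1, Krt7 and Sh3rf2 are large at 3i and within 0.6 of 0 in the EBs. Irf8 in the EBs and Sh3rf2 at day 2 were near the floor, where the prior count pulls ratios toward 0.

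Among signalling genes, Etv5, a transcription factor induced by FGF and ERK signalling, was lower in KO+N-KR, at 132 and 128 CPM against 279 and 270 CPM in KO+WT, with KO at 196 CPM and f/f at 188 CPM. The log2 ratio was -1.07 at 3i and -0.45 and -0.46 in the EBs, and Etv5 fell across states (-0.65 ± 0.10, edgeR adjusted p = 0.00422, and 0.0714 without day 1). Of 14 FGF-ERK feedback genes no other was called by size or passed across states. In the EBs alone Etv5 fell (-0.45 ± 0.07, edgeR adjusted p = 0.00185), while 3 members rose, against 0.445% of all genes. These were the transcription factor Etv4 (0.56 ± 0.08, edgeR adjusted p = 0.00078), Phlda1 (0.82 ± 0.13, 0.00336) and the negative feedback gene Spry4 (0.42 ± 0.08, 0.0180). At 3i the list's median was -0.20, with Spry4 at 21.3 and 19.5 CPM against 17.9 and 18.9 CPM and the phosphatase gene Dusp6 at 26.8 and 23.0 CPM against 29.7 and 29.4 CPM. Dusp6, Spry4, Etv4 and Phlda1 were named after their values were seen.

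Fgf17, a secreted ligand of that pathway, stood at 2.51 and 2.95 CPM against 6.89 and 7.07 CPM and fell across states (-0.96 ± 0.19, edgeR adjusted p = 0.0416). That call was lost without any 1 state or replicate other than day 2, with adjusted p from 0.0908 to 0.597. Lef1, a WNT-responsive transcription factor, stood at 2.34 and 0.907 CPM against 5.59 and 4.63 CPM (log2 ratio -1.52). KO at 1.17 CPM and f/f at 2.20 CPM were both near KO+N-KR, so KO+WT stood apart for this gene. In the EBs the ratio was -0.41 and 0.25, and Lef1 did not pass (edgeR adjusted p = 0.818). None of 12 WNT feedback genes passed across states, with a median of -0.29. Fam169b, at 10.0 and 8.73 CPM against 24.4 and 24.8 CPM, fell across states (-1.05 ± 0.20, edgeR adjusted p = 0.0340), and not when any 1 state was left out (0.0895 to 0.147).

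Imprinted genes moved in both directions. Of 28 tested on the classical list 3 rose and 1 fell across states, beside 0.294% and 0.267% of all genes, and 2 rose and 1 fell in the EBs alone. Their median log2 ratio at 3i was -0.02. Impact, a paternally expressed inhibitor of the kinase GCN2, stood at 186 and 185 CPM against 94.4 and 97.7 CPM, with KO at 94.2 CPM and f/f at 95.8 CPM. KO+N-KR alone was high, 1.94-fold at 3i, with log2 ratios of 0.96, 0.94 and 0.89 over the 3 states (across states 0.93 ± 0.08, edgeR adjusted p = 6.10e-05). The 6 neighbours counted on each side of Impact had medians of 0.06 and -0.17, and none passed.

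Peg3, a paternally expressed zinc finger gene, stood at 113 and 112 CPM against 70.8 and 74.7 CPM, with 71.5 CPM in KO and 66.7 CPM in f/f, and rose (0.97 ± 0.09, edgeR adjusted p = 9.41e-05). Its antisense transcript Peg3as passed too (0.92 ± 0.11, edgeR adjusted p = 0.000775), but no source used here gives the strand setting of the counts, and the 2 cannot be separated. Plagl1, a zinc finger gene that regulates other imprinted genes, stood at 164 and 155 CPM against 80.3 and 71.2 CPM, with 102 CPM in KO and 61.8 CPM in f/f. It was called by size (2.10-fold) and rose across states (1.01 ± 0.20, edgeR adjusted p = 0.0448), a call lost under library totals (0.0526), DESeq2 size factors (0.0522) and DESeq2's Wald test (0.0933), and without day 1 (0.795) or 3i (0.0897). Zdbf2, an imprinted gene outside the list named after its values were seen, stood at 131 and 137 CPM against 82.5 and 90.0 CPM and rose (0.76 ± 0.07, edgeR adjusted p = 9.41e-05), with KO near KO+N-KR at 135 CPM.

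Grb10, an adaptor that dampens insulin and growth factor signalling, stood at 128 and 125 CPM against 226 and 225 CPM and fell (-0.76 ± 0.11, edgeR adjusted p = 0.00504, and 0.253 without day 1). Both were above KO and f/f, at 85.3 and 85.8 CPM. The neighbours Igf2, a growth factor, and H19, a noncoding RNA of the other parental allele, were both called lower by size at 3i. Igf2 stood at 13.8 and 14.2 CPM against 34.2 and 36.8 CPM (log2 ratio -1.32), and H19 at 22.5 and 21.2 CPM against 47.9 and 42.3 CPM (-1.04). Neither passed across states (edgeR adjusted p = 0.135 and 0.854), though Igf2 did with DESeq2's Wald test (0.0190), and H19 had a ratio of 0.41 at day 1. Smoc1, a secreted calcium-binding protein gene and 1 of 8 genes on the list of genes imprinted through PRC2 marks, stood at 12.3 and 15.0 CPM against 21.8 and 19.8 CPM and fell (-0.55 ± 0.09, edgeR adjusted p = 0.00743), a call lost when any 1 state or replicate 2 was left out (0.0654 to 0.199).

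Of the 44 genes that rose across states, 14 lay in 1 run of neighbouring genes on chromosome 12 and 3 in another on chromosome 15. The runs were noticed in these calls, so their counts are descriptions, and gene order was taken from RefSeq on GRCm38 because the files' build is another. In the chromosome 12 run, from 1700020O03Rik (Gpatch2l) to Snw1, 17 genes were counted, 14 rose, none fell, and 16 had a ratio above 0 at 3i. The median log2 ratio was 0.61 at 3i (1.53-fold), 0.58 at day 1 and 0.64 at day 2. At 3i KO and f/f lay at the level of KO+WT in this run, with medians of -0.09 and -0.03 over it. The 6 genes counted before and after it had medians of 0.18 and 0.02, and none passed.

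Members of the run have unrelated roles. Ahsa1, a co-chaperone that activates HSP90, stood at 385 and 369 CPM against 226 and 235 CPM (0.70 ± 0.06, edgeR adjusted p = 3.84e-05). Sptlc2, a subunit of the first enzyme of sphingolipid synthesis (0.70 ± 0.06, edgeR adjusted p = 8.79e-05), and Pomt2, a mannosyltransferase (0.72 ± 0.08, 0.000474), rose as much, and Gstz1, an enzyme of tyrosine breakdown, was the member called by size at 33.2 and 35.03 CPM against 15.9 and 18.0 CPM (log2 ratio 1.02). Esrrb, an orphan nuclear receptor of the naive pluripotency network, is in the run too, at 1002 and 1021 CPM against 718 and 696 CPM. Its log2 ratio was 0.52 at 3i, 0.58 at day 1 and 0.46 at day 2, and it did not pass across the 4 genotypes (0.52 ± 0.11, edgeR adjusted p = 0.0755), while it passed in the EBs alone (0.00315) and in the fit of KO+N-KR and KO+WT alone (0.000164). Vash1, an exception named after its value was seen, had a ratio of -0.43 at 3i and of 0.52 and 0.24 in the EBs.

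In the chromosome 15 trio the sample that stood apart was KO+WT. E430025E21Rik (Washc5), a subunit of the endosomal WASH complex, stood at 109.8 and 109 CPM in KO+N-KR, 108 CPM in KO and 101 CPM in f/f, and at 58.6 and 58.0 CPM in KO+WT (across states 1.03 ± 0.06, edgeR adjusted p = 1.45e-06). Nsmce2, a SUMO ligase of the SMC5/6 complex, stood at 51.8 and 52.1 CPM against 27.7 and 28.5 CPM (0.85 ± 0.07, edgeR adjusted p = 5.41e-05), and Sqle, an enzyme of cholesterol synthesis, at 106 and 103 CPM against 62.6 and 60.5 CPM (0.73 ± 0.08, 0.000474). The trio's median log2 ratio was 0.89 at 3i (1.86-fold), 0.90 at day 1 and 0.82 at day 2, and KO and f/f lay 0.79 and 0.99 above KO+WT at 3i. None of the 6 neighbours counted on either side passed. Sqle was the 1 of 18 cholesterol synthesis genes to pass, and the list's median was -0.09.

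**Figure D4:**
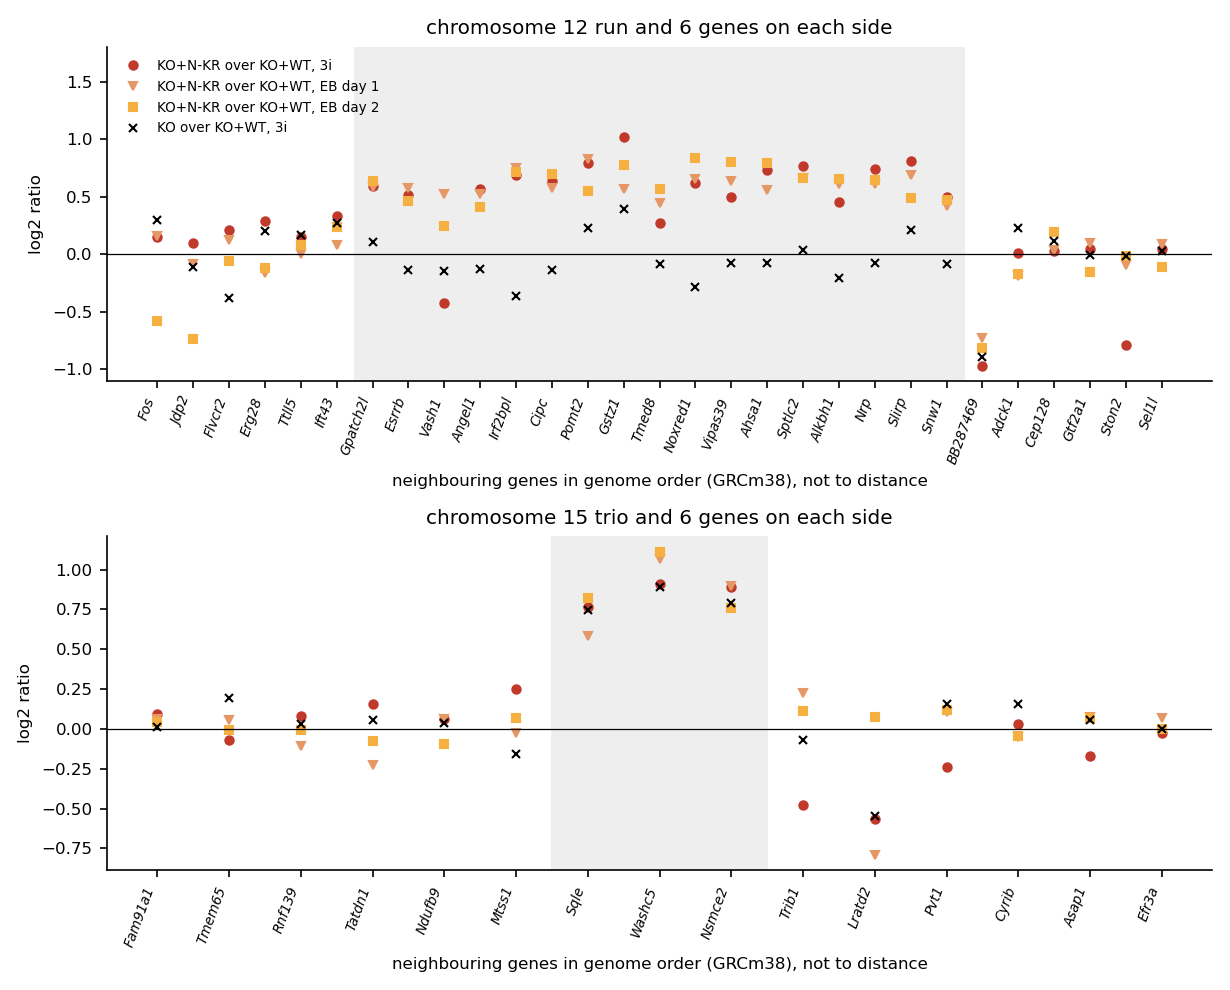
Log2 ratios of neighbouring genes in genome order, not to distance, for the chromosome 12 run (top) and the chromosome 15 trio (bottom), shaded, with 6 tested genes on each side. Circles, triangles and squares are KO+N-KR over KO+WT at 3i, day 1 and day 2, and crosses are KO over KO+WT at 3i. In the chromosome 12 run the crosses lie near 0 (median -0.09), and in the trio they lie with the KO+N-KR points.

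The cells carry a Y chromosome. All 4 of its tested genes had a ratio above 0 at 3i, with a median of 0.37, and 2 of them rose across states, beside 0.294% of all genes. Eif2s3y, a translation initiation factor subunit, stood at 75.7 and 75.6 CPM in KO+N-KR against 32.0 and 27.8 CPM in KO+WT, with 24.5 CPM in KO and 30.3 CPM in f/f. Its ratio was 2.51-fold at 3i and equal in size in the EBs (log2 1.33, 1.30 and 1.33), and it rose across states (1.32 ± 0.07, edgeR adjusted p = 5.91e-07). Ddx3y, an RNA helicase, stood at 109 and 109.95 CPM against 85.4 and 81.4 CPM and rose (0.43 ± 0.07, edgeR adjusted p = 0.00664, and 0.430 without day 1). Kdm5d, a histone demethylase gene, stood at 1.37 and 1.25 CPM against 1.02 and 1.03 CPM and did not pass (edgeR adjusted p = 0.704). Uty, a relative of a histone demethylase, stood at 29.5 and 29.4 CPM against 29.9 and 27.5 CPM and did not pass (0.01 ± 0.08, edgeR adjusted p = 0.997).

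Other genes were called by size at 3i but did not pass across states. Aldh1a3, a retinoic acid synthesis enzyme, stood at 14.8 and 20.9 CPM against 5.31 and 5.40 CPM, with KO at 2.52 CPM and f/f at 2.80 CPM, so KO+N-KR was the highest sample (log2 ratio 1.68, interval 1.38 to 2.04). Irf8, a transcription factor of the interferon and myeloid programs, stood at 14.6 and 14.5 CPM against 4.19 and 5.27 CPM, with log2 ratios of 1.63 at 3i and of 0.10 and -0.35 in the EBs. It was near the floor there, at 0.578 against 0.534 CPM at day 1 and 1.19 against 1.54 CPM at day 2. Grin1, a glutamate receptor subunit gene, stood at 33.1 and 33.7 CPM against 11.5 and 11.6 CPM (log2 1.53, then 0.74 and -0.14). E130003G02Rik (Grin1os), annotated opposite Grin1, was at 17.1 and 16.2 CPM against 5.68 and 6.43 CPM, and without a stated strand setting the 2 cannot be told apart. None of these 4 passed across states (edgeR adjusted p from 0.244 to 0.692), though Aldh1a3 did in the fit of both rescue lines alone (0.0133) and from the replicate 2 libraries (0.0483), and Grin1 without day 2 (0.0456).

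Others were Slco4a1, an organic anion transporter (15.8 and 18.4 CPM against 6.89 and 7.33 CPM), Rab3il1 (14.0 and 15.4 CPM against 6.42 and 5.91 CPM), the keratin Krt7 (24.3 and 23.5 CPM against 10.4 and 12.9 CPM), 1190002H23Rik (Rgcc; 33.8 and 33.2 CPM against 17.0 and 15.7 CPM) and the fibrinogen chain Fgg (6.39 and 7.93 CPM against 3.07 and 3.21 CPM). In each, both KO+N-KR libraries were above both KO+WT libraries, which a call by size all but fixes. Their day 1 ratios ran from -0.04 (Krt7) to 0.75 (Fgg) and their day 2 ratios ran from -1.56 (Fgg) to 0.05 (Rab3il1), and none passed across states (edgeR adjusted p from 0.433 to 0.937). Fgg was near the floor in the EBs, so its ratios there carry wide counting error. It stood at 0.145 against 0.0486 CPM at day 1 and at 0.248 against 0.907 CPM at day 2. Among genes called lower at 3i, Sh3rf2 (1.62 and 1.81 CPM against 5.03 and 5.40 CPM) had ratios of 0.09 and 0.29 in the EBs, and the noncoding RNA gene 2810011L19Rik (Tunar; 2.34 and 1.93 CPM against 6.05 and 5.91 CPM) had ratios of -0.17 and -0.42. Sh3rf2 stood at 4.34 against 4.08 CPM at day 1 and was near the floor at day 2, at 0.743 against 0.591 CPM.

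No textbook target of Polycomb silencing was called by size at 3i or passed across states. Of 45 such genes outside the Hox clusters, most of them regulators of later cell types, 6 reached 5 CPM at 3i and 30 were tested across states. In the EBs alone 2 of 29 rose, Gata4 and Gata6, which are also on the endoderm list, and none fell. In the fit of the 24 libraries 2 of 28 were higher and 7 lower, beside 9.08% and 10.4% of all genes. Their median log2 ratio was -0.46 at 3i, 0.17 at day 1 and -0.11 at day 2, with 12 above and 18 below 0 at 3i. The list summed to 139 and 139 CPM in KO+N-KR, 166 and 162 CPM in KO+WT, 138 CPM in KO and 151 CPM in f/f. Olig2, a neural regulator, stood at 32.8 and 35.9 CPM against 49.99 and 48.1 CPM (log2 ratio -0.52), while its neighbour Olig1 stood at 44.4 and 44.3 CPM against 45.5 and 41.9 CPM. Of 16 Hox genes 8 were tested, none passed, and the median was -0.53, with Hoxc13 at 5.98 and 5.21 CPM against 8.01 and 6.30 CPM. For most of these genes, levels near 0 leave wide counting error: Hoxb9, at 2.26 and 2.15 CPM against 3.44 and 3.08 CPM, had an interval of -1.15 to 0.01.

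Genes of the next pluripotent stage lay lower in KO+N-KR than in KO+WT at 3i, with KO+WT the highest sample. Of 15 formative and primed epiblast genes 14 had a ratio below 0, beside 7406 of all 14970 genes tested. Their median was -0.46, and the ratios closed in the EBs (-0.30 at day 1, 0.13 at day 2). The list summed to 252 and 235 CPM in KO+N-KR, 310 and 303 CPM in KO+WT, 243 CPM in KO and 223 CPM in f/f. Lef1 was called by size and none passed across states. Of 13 tested mesoderm genes 10 had a ratio below 0 at 3i (median -0.53), as did 6 of 8 neuroectoderm genes (median -0.70), and none passed across states. Only 3 genes of the mesoderm list and 3 of the neuroectoderm list reached 5 CPM at 3i, so most of these ratios carry wide counting error. The mesoderm list summed to 31.9 and 31.2 CPM in KO+N-KR, 49.0 and 48.7 CPM in KO+WT, 31.2 CPM in KO and 35.2 CPM in f/f. The neuroectoderm list summed to 60.1 and 62.8 CPM, 84.3 and 83.7 CPM, 73.7 CPM and 76.1 CPM in the same order. Olig2 alone stood at 49.1 CPM in KO+WT. Gata2, a mesoderm and blood regulator, stood at 12.4 and 10.3 CPM against 17.3 and 16.8 CPM, with KO at 4.95 CPM and f/f at 11.2 CPM. Of 10 trophoblast genes 1, Krt7, was called by size and none passed across states. No member passed across states among 11 tested genes of the primitive streak, 16 of the germline, 5 of neurons and 4 of endothelium and blood.

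**Figure D5:**
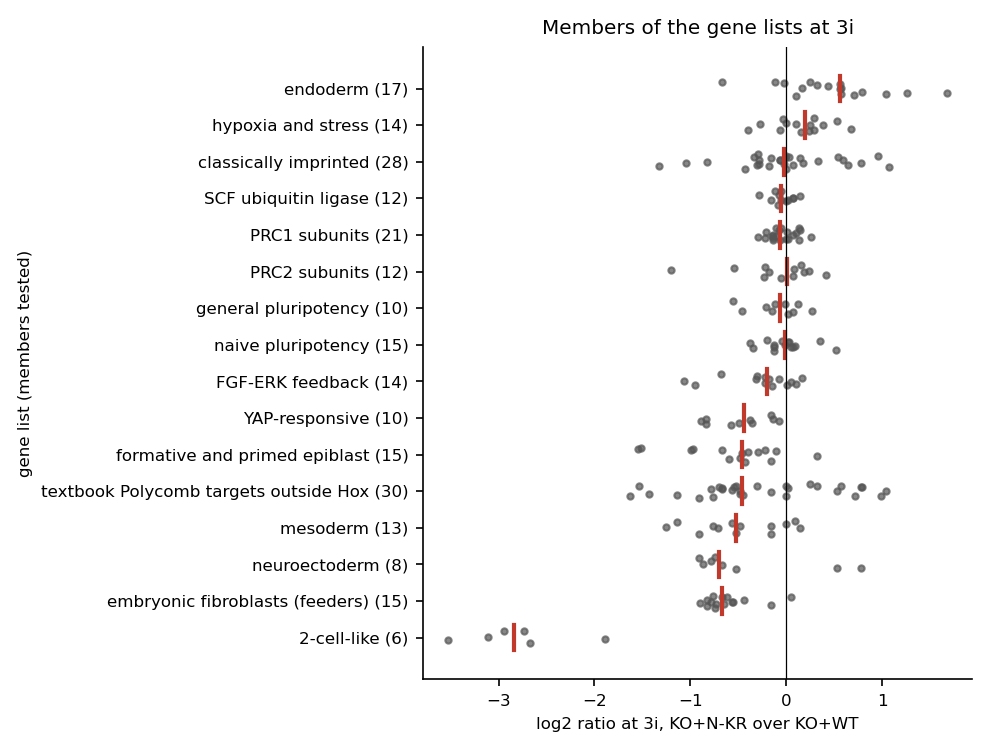
Log2 ratio at 3i, KO+N-KR over KO+WT, of each tested member (grey points, jittered vertically) of 16 gene lists, with the number tested in brackets and the median as a red bar. The 2-cell-like list lies lowest (median -2.84) and the endoderm list highest (0.56), and all but 1 of the feeder genes lie below 0.

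Markers of the feeder fibroblasts were lower in KO+N-KR at 3i and moved with several of these lists. Col1a1, the fibrillar collagen chain, stood at 207 and 205 CPM against 357 and 346 CPM, with KO at 222 CPM and f/f at 242 CPM, so KO+WT was the highest sample. Of 15 tested feeder markers 14 had a ratio below 0, with a median of -0.67 at 3i, -0.29 at day 1 and -0.50 at day 2. None was called by size, and 13 were lower and 1 higher in the fit of the 24 libraries, beside 10.4% and 9.08% of all genes. Col5a2 fell across states (-0.62 ± 0.13, edgeR adjusted p = 0.0473), a call lost under library totals (0.0528) and when any 1 state or replicate was left out (0.0909 to 0.561). Col6a1 fell in the EBs alone (-0.72 ± 0.16, edgeR adjusted p = 0.0492). The 16 markers summed to 3634 and 3604 CPM in KO+N-KR and 3897 and 3841 CPM in KO+WT, mostly from Fn1, which was at 3095 and 3082 CPM against 2994 and 2977 CPM. Without Fn1 they summed to 539 and 522 CPM against 903 and 865 CPM, with 589 CPM in KO and 615 CPM in f/f. Lum had 0 counts in 1 library of each group, and Dcn was under 1 CPM in all 4.

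Whether feeder RNA took part in the lower values was not tested. Several genes called lower at 3i are also known from fibroblasts and other mesenchymal cells, among them Vcam1, an adhesion molecule (2.02 and 1.59 CPM against 6.33 and 3.98 CPM), Igf2 and H19. All 10 YAP-responsive genes had ratios below 0 at 3i, with a median of -0.44, beside 7406 of all 14970 genes tested. In the fit of the 24 libraries 8 were lower, beside 10.4% of all genes, and none passed across states. The list summed to 979 and 983 CPM in KO+N-KR, 1174 and 1172 CPM in KO+WT, 1179 CPM in KO and 691 CPM in f/f. Ctgf (Ccn2), a matrix protein of that list, stood at 173 and 180.3 CPM against 227 and 235 CPM and had ratios of 0.60 and 0.15 in the EBs. Fundc1 was as low in the EBs as at 3i, and the Zscan4 genes were lower there too. The feeder markers were lower in the EBs as well, with medians of -0.29 at day 1 and -0.50 at day 2.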

How the data were processed

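Poly(A) RNA libraries (24, in 12 groups of 2) were analysed from 1 table of raw read counts per gene symbol that the authors deposited. Per the submitters' processing notes, STAR 2.5.2b and DESeq2 (version not given) were used with build mm9. The sources used here do not give the counting tool, annotation or strand setting. Of 30 columns, 24 match library names in the labels, and the other 6 were not used. Totals ran from 7553683 to 14426034 counts per library.

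The 2 libraries of a group differed by 1.10 to 1.18 times the binomial variance and were summed. The same-numbered libraries did not deviate together. Counts were scaled by TMM in edgeR 4.0.16 (R 4.3.3), and log2 ratios used a prior count of 2. The fits used filterByExpr, the quasi-likelihood F-test and Benjamini-Hochberg adjustment at 0.05: genotype and state over 12 sums (6 residual degrees of freedom, coefficient of variation 7.94%), the same over the 8 EB sums (3 and 6.38%), and 12 groups over 24 libraries (12 and 0.988%). The 2 fits of sums assume that a line's difference is the same in each state. Each SE is the log2 difference over the square root of its F. The fits over 12 sums and over 24 libraries were tested on simulated counts, and the fit over the 8 EB sums was not. DESeq2 1.42.0 served as an alternative.

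The comparison, gene lists and tests were chosen with earlier results of these data known. Genes named are the PRC2 genes, Skp1a, the 15 highest and 15 lowest ratios called by size, the 5 genes each way with the lowest p across states among those of at least 1.5-fold at 3i, and up to 4 called members of each list (or its 2 most abundant); others are said to be named after their values were seen, or stand in a run or family. The values of 1 gene that this rule names are not reported here. RefSeq symbols matched 23038 of 23284 genes.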

Additional observations from a re-analysis of the deposited data

How the results depend on the processing

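With 1 sample per line and state, no comparison here has replicate lines, and shallow genes carry wide counting error. Each named gene called by size kept its direction at 3i under library totals, DESeq2 size factors and a prior count of 0.5 and without either replicate, and the median over all genes moved at most to -0.01. The kept direction is all but fixed by calls on the sums of the same libraries. By size, 15 higher and 39 lower genes became 13 and 13 with a minimum of 10 CPM, 68 and 181 with 1 CPM, and 122 and 213 at 1.5-fold, and 20 to 24 and 51 to 56 with 1 replicate left out. Across states, 44 and 40 genes became 66 and 68 with DESeq2's Wald test, 97 and 103 with both rescue lines alone, 15 and 15 without day 1, and 37 to 48 and 26 to 30 with 1 replicate left out, where 54 to 69 of the 84 remained. In the EBs alone, 66 and 32 became 45 to 55 and 17 to 20 with 1 replicate left out. The fit of the 24 libraries gave 501 and 889 with DESeq2, and 757 to 1038 and 942 to 1216 with 1 library left out, in place of 1328 and 1518. The causes were not tested, other than that these settings change the number of samples or the thresholds.

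With the replicate block, the library number as a term, that fit gave 1363 higher and 1552 lower genes. The numbers did not pair the samples: deviations of the same-numbered KO+N-KR and KO+WT libraries at 3i had a correlation of -0.0045 over 10737 genes, and the lowest and median over all pairs of groups were -0.026 and 0.0067.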

Other observations

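A few gene groups outside the lists above also differed. The metallothionein genes Mt1 and Mt2, which bind zinc and copper, rose in KO+N-KR across states (0.49 ± 0.07 and 0.52 ± 0.06, edgeR adjusted p = 0.00289 and 0.000921). At 3i Mt2 stood at 543 and 522 CPM against 345 and 331 CPM in KO+WT, with KO at 534 CPM and f/f at 612 CPM, so KO+WT was the low sample. Trf, the iron carrier transferrin, was also lowest in KO+WT, at 20.4 and 19.8 CPM against 12.2 and 10.5 CPM with KO at 16.1 CPM and f/f at 17.8 CPM (0.63 ± 0.11, edgeR adjusted p = 0.0209). Usp26, an X-linked ubiquitin protease of the germline, fell (-0.64 ± 0.11, edgeR adjusted p = 0.0159), from 13.6 and 13.6 CPM in KO+WT to 6.55 and 7.03 CPM, with KO at 5.91 CPM. These genes were named after their values were seen.

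Of 14 hypoxia and stress genes none passed across states, and the median at 3i was 0.20. In the fit of the 24 libraries 8 were higher and 1 lower, beside 9.08% and 10.4% of all genes. The glucose transporter Slc2a1 stood at 668 and 670 CPM against 467 and 460 CPM at 3i, a log2 ratio of 0.53, and at -0.07 and -0.01 in the EBs. The X-linked Xlr3a, from a family of near-identical copies, was low in both rescue lines (1.62 and 1.700 CPM in KO+N-KR, 2.61 and 2.19 CPM in KO+WT) beside 37.2 CPM in KO and 42.8 CPM in f/f, and did not pass between the rescue lines (edgeR adjusted p = 0.128).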
